A study of Mus musculus with 16 samples.

Results

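The 10 genes described here encode cytoplasmic intermediate filament proteins: Vim, Nes, Gfap, Des, Nefl, Nefm, Ina, Krt8, Krt18 and Krt19. They were taken by name, as a listed set, from the 24982 genes of the count table, and each was also found in the TPM table and had counts in these tumors. Intermediate filaments are rope-like polymers that give a cell mechanical strength, and a cell type is recognised by which of these proteins it makes. Vimentin (Vim) is made by mesenchymal cells, keratins 8 and 18 by simple epithelia as obligate partners, glial fibrillary acidic protein (Gfap) by astrocytes, desmin (Des) by muscle, neurofilament proteins by neurons and nestin (Nes) by neural progenitors. Rhabdoid cells carry a round inclusion beside the nucleus that consists of whorled intermediate filaments, and the tumors are often found to stain for both vimentin and keratins.

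The tumors were 16 primary rhabdoid tumors (RT) of mice with the genotype Smarcb1flox/flox;R26-CreERT2, on a mixed 129/SV and C57BL/6 background, each from a different mouse. In this strain a ubiquitous Cre recombinase is activated by tamoxifen given during gestation, and both copies of the chromatin remodelling gene Smarcb1 are floxed, so that neither the cell nor the site of origin is set by the promoter. The 5 intra-CNS tumors lay within the central nervous system (CNS), came from mice that received tamoxifen at E6 and were taken at 30 to 180 days of age. These tumors belong to the Shh subgroup in the mouse table of the study. The 11 extra-CNS tumors belong to its Myc subgroup, and 6 of them were intracranial but outside the CNS while 5 were extracranial, in the back, jaw (2 tumors), nose or mouth. Among the intracranial extra-CNS tumors, tamoxifen was given at E6 in 1, E7 in 1 and E8 in 4 mice, and the ages were 52 to 170 days. Among the extracranial tumors it was given at E6 in 1 and E8 in 4 mice, and the ages were 80 to 210 days. The day of induction and the site thus moved together, and within the comparison of intra-CNS with extra-CNS tumors they cannot be told apart except over the 7 tumors induced at E6. Bulk polyadenylated RNA was measured, so that fewer cells of a type and less RNA per cell cannot be told apart.

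Total counts per tumor ranged from 17889968 to 110177889. Smarcb1 was at 3.99 to 58.1 TPM in the intra-CNS and 6.48 to 43.7 TPM in the extra-CNS tumors, and normal tissue was not analysed here. Both upper ends were single tumors, that of 29048 among the intra-CNS tumors (3.99 to 9.91 TPM in the others) and that of R26P115 among the extra-CNS tumors (6.48 to 26.1 TPM in the others). The same tumors stood apart in genes of other cell types, whose part in the Smarcb1 levels was not tested. The intra-CNS tumor of mouse 29048 had 6772 TPM summed over 7 oligodendrocyte genes, against 53.9 to 166 TPM in the other intra-CNS tumors. Over 4 genes of the choroid plexus, an epithelium, it had 4603 TPM, against 3.33 to 6.25 TPM in these tumors. The intracranial tumor of R26P115 had 201893 TPM of the same 4 genes, and since TPM values of a tumor add up to a fixed total, this lowers the TPM of its other genes. The tumor of 43990A, taken here as extracranial after its label (nose), is listed as intracranial in the mouse table of the study. Neural progenitor genes (Sox1, Sox2, Pax6, Fabp7 and Msi1) summed to 1744 to 3623 TPM in intra-CNS and 1.51 to 134 TPM in extra-CNS tumors, while 5 fibroblast genes summed to 74.7 to 207 and 513 to 6878 TPM.

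Coordinates of the 10 genes were taken from GENCODE. Vim is on chromosome 2 (GRCm38, positions 13573927 to 13582826), Des on chromosome 1 (75360329 to 75368579), Nes on chromosome 3 (87971078 to 87980451) and Ina, the gene of alpha-internexin, on chromosome 19 (47014698 to 47025327). Gfap (102887336 to 102900912) and Krt19 (100140810 to 100148665) are on chromosome 11. Krt8 (101996698 to 102004482, minus strand) and Krt18 (102028180 to 102032027, plus strand) are neighbours on chromosome 15, with 23697 bases and 0 other annotated genes between them. Nefl (68083863 to 68089095, plus strand) lies on chromosome 14 inside the annotated span of Nefm (68082590 to 68124846, minus strand). All 10 are annotated as protein-coding. Gfap, Des, Ina and Krt8 each overlap a gene on the other strand (Gm26668, Gm15179, Nt5c2 and Gm36026), and Krt8 has a named pseudogene, Krt8-ps. The libraries were stranded, but whether strand was used in counting is not given in the sources used here, so reads of overlapping genes may be shared.

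Because Krt8, Krt18 and Ina had the largest fold changes between intra-CNS and extra-CNS tumors, and Gfap that between the sites of extra-CNS tumors, the bases just upstream of their RefSeq start sites (GRCm38.p6) are shown 5′ to 3′ on the strand of the gene. The windows end at the start site for Ina (chr19:47014431-47014680) and Gfap (chr11:102897201-102897450), and bases that fall in annotated exons were left off for Krt8 (chr15:102004483-102004592) and Krt18 (chr15:102027966-102028179). Capitals mark the E-box letters CANNTG, a core that basic helix-loop-helix and zinc finger factors bind.
Krt8: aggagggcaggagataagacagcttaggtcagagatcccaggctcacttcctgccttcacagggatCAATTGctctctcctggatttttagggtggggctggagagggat
Krt18: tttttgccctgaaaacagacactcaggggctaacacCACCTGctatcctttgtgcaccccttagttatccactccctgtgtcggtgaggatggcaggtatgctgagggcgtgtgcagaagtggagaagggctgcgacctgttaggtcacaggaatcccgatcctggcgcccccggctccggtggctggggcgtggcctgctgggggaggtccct
Ina: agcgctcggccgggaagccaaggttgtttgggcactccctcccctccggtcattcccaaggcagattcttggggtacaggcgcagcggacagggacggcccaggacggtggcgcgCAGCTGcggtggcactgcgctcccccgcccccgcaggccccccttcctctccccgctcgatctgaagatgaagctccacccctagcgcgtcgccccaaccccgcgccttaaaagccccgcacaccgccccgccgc
Gfap: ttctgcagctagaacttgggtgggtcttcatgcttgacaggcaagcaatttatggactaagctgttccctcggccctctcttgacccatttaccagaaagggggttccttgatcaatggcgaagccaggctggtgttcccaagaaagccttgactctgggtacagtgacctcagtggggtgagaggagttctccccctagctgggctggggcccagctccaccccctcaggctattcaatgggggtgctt
Entries were found for 7 of the 10 genes, and those of Nefl, Nefm and Krt19 are named only. In the full 250 bases upstream, Krt8 held 2 E-box matches (1 of them in the bases left off), Krt18 held 1, Ina held 1, Des held 2, and Gfap, Nes and Vim held 0, while 66.2% of 32851 mouse promoters hold at least 1. The TATA box core TATAAA, searched on both strands, was found in the window of Vim only among the 7, at 32 bases before the start, and 12.4% of all promoters hold it. A match describes the letters of the window only. The GC content was 70.8% for Ina, 67.2% for Des, 60.4% for Krt18, 58% for Krt8 and 55.6% for Gfap, against a median of 52.4% over all promoters.

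Vimentin transcripts were the most abundant of the 10 in all 16 tumors. In the intra-CNS tumors Vim was at 1092 (29048), 1369 (29050A), 1850 (38594A), 1884 (R26P87) and 2664 TPM (R26P98). In the intracranial extra-CNS tumors it ran from 604 TPM in R26P115 through a median of 8536 to 17793 TPM in R26P170. The extracranial tumors held 367 (43990A), 3485 (43825B), 5997 (R26P123), 7548 (43987A) and 7939 TPM (43998A). So 9 of the 11 extra-CNS tumors lay above every intra-CNS tumor and the remaining 2, R26P115 and 43990A, lay below every one of them. Vim was the first-ranked gene of the whole TPM table in the tumor of R26P170, and its median rank was 5 in extra-CNS and 50 in intra-CNS tumors. It made up 42.5% to 97.7% of the summed TPM of the 10 genes.

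**Figure D1:**
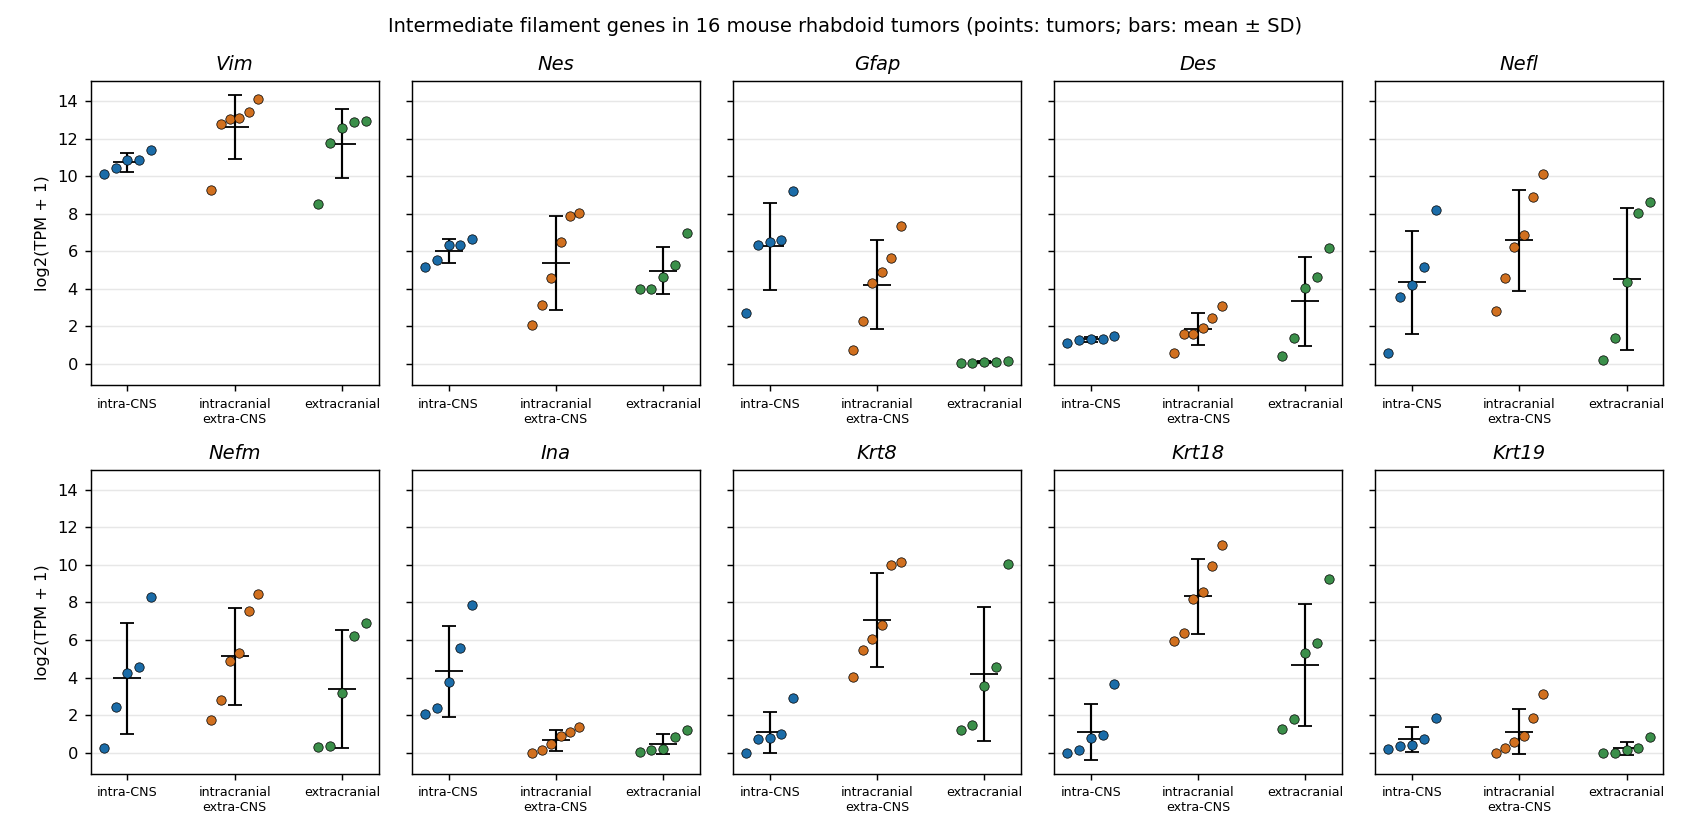
Each panel plots log2(TPM + 1) of 1 gene, with 1 point per tumor (5 intra-CNS, 6 intracranial extra-CNS and 5 extracranial), a horizontal bar at the mean and whiskers of ± 1 SD. Vim is high in all groups, Ina is highest in the 5 intra-CNS tumors, Gfap is near 0 in the 5 extracranial tumors, and Krt8, Krt18 and Nefl are spread widely among extra-CNS tumors.

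The composition after Vim differed from tumor to tumor. The second most abundant of the 10 was Nes in 3 and Gfap in 2 intra-CNS tumors. Among the 11 extra-CNS tumors it was Nefl in 5, Nes in 2, Krt8 in 2 and Krt18 in 2. Krt8 and Krt18 together made 18.6% (43992A), 26.5% (29225D), 31.8% (43825B) and 36.7% (R26P115) of the summed TPM in 4 extra-CNS tumors. In the other 7 extra-CNS tumors this share was 0.0558% to 3.32%, and in the intra-CNS tumors 0% to 0.711%. The tumors with a large keratin share thus included 3 intracranial tumors and 1 of the back. A large share is not always a higher level. R26P115, with Vim at 604 TPM, held 109 TPM of Krt8 and 292 TPM of Krt18. The tumor of 29941C, with a share of 3.32%, held 64.2 and 368 TPM. R26P115 also held 201893 TPM of choroid plexus genes, whose part in its keratin levels was not tested. The neurofilament genes Nefl, Nefm and Ina made 32.6% in the intra-CNS tumor of 29048, the largest such share, and 11.3% in the intracranial tumor of 29941C.

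**Figure D2:**
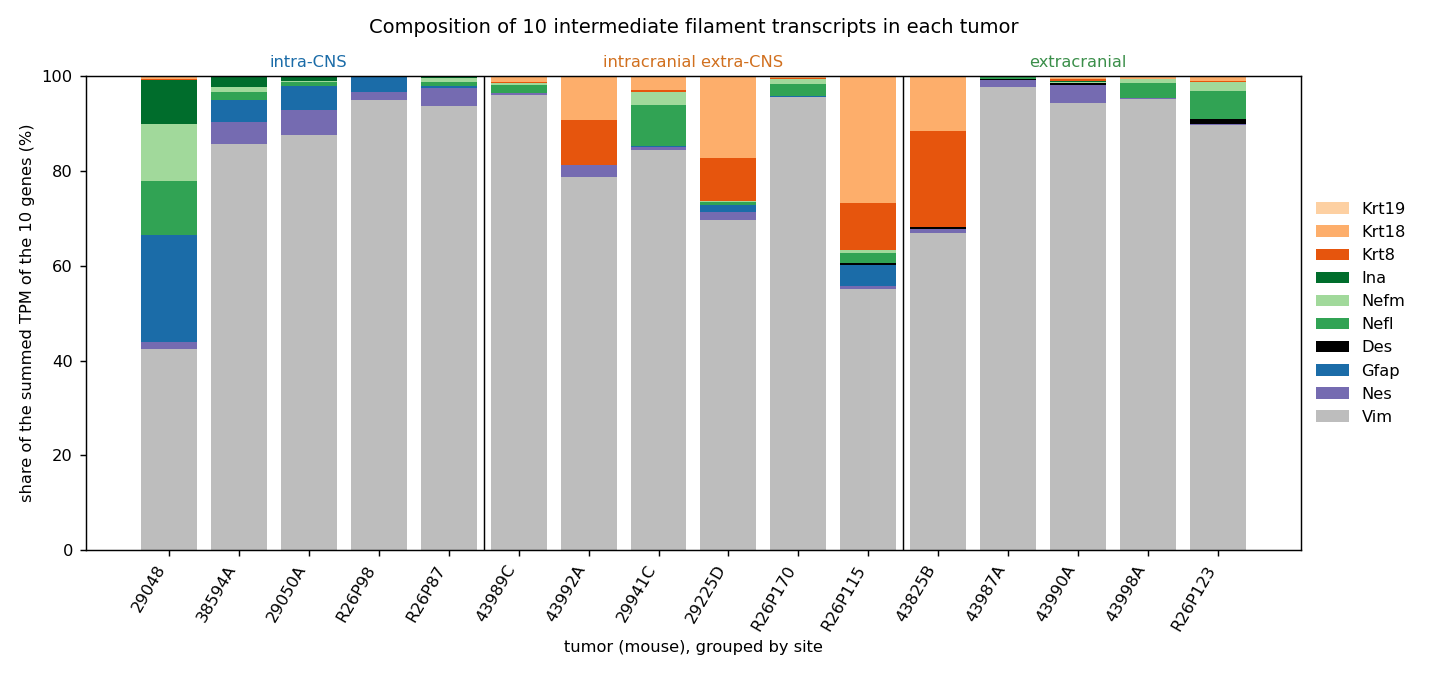
Stacked bars give, for each of the 16 tumors, the share of each gene in the summed TPM of the 10 genes (in %), with tumors ordered by group. Vim fills most of each bar except in 29048 (42.5%), and the orange keratin part is large in 43992A, 29225D, R26P115 and 43825B.

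The comparison of the 5 intra-CNS with the 11 extra-CNS tumors asks how the filament genes differ between Shh and Myc tumors. A gene was called where edgeR gave a Benjamini-Hochberg adjusted p below 0.05 over the 21854 genes tested together with a change of more than 1 on the log2 scale. Of the 10 genes, 5 were called, 1 higher (Ina) and 4 lower (Krt8, Krt18, Vim and Des) in intra-CNS tumors, while 5689 of all genes tested were called, 12.9% of the tested genes being higher and 13.1% lower. DESeq2 called 5 of the 10 (29.1% of all genes) and limma on log2(TPM + 1) called 4 (24.8%). The DESeq2 share takes as not called 3490 genes to which it gave no adjusted p. With limma, Vim and Des were not called and Gfap was called higher. Over all genes limma called 4082 higher and 1324 lower, against 2829 and 2860 with edgeR. The median log2 fold change of all genes was -0.15 with edgeR and 0.20 with limma. Over the 7 tumors induced at E6 (5 against 2), edgeR called 4 of the 10, all lower in intra-CNS tumors (Vim, Des, Krt8 and Krt18), and 16.9% of all genes. Among the numbered mice alone (3 against 8) it called 2, Vim and Ina, and 25.7% of all genes. Against the 6 intracranial extra-CNS tumors it called 4 (without Des) and 23.0% of all genes, and against the 5 extracranial tumors 6 (with Gfap) and 26.2%. After the data were seen, the fit was repeated without the tumors of 29048 and R26P115, where 4 of the 10 (without Des) and 27.1% of all genes were called, and without those of 43990A and R26P115, where 5 and 31.7% were called. The latter pair was picked for its low Vim, so the call of Vim in that fit is no support. The p-values measure the spread between tumors of different mice.

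Keratins 8 and 18 are the type II and type I partners of the filament of simple epithelia. In the intra-CNS tumors Krt8 was at 0 (R26P87), 0.67 (29050A), 0.714 (38594A), 0.982 (R26P98) and 6.49 TPM (29048). In the intracranial extra-CNS tumors it ran from 15.4 TPM (43989C) through a median of 86.7 to 1135 TPM (29225D), and the extracranial tumors held 1.33 (43990A), 1.79 (43987A), 10.7 (43998A), 22.3 (R26P123) and 1054 TPM (43825B). So 9 of 11 extra-CNS tumors exceeded every intra-CNS tumor, and only 43990A and 43987A lay within the range of the latter. The log2 fold change of intra-CNS against extra-CNS tumors was -8.00 (SE 2.13, edgeR adjusted p = 0.00878).

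Krt18 gave a like picture. It was at 0 (R26P87), 0.115 (38594A), 0.712 (R26P98), 0.891 (29050A) and 11.8 TPM (29048) in intra-CNS tumors. Intracranial extra-CNS tumors held 59.8 (R26P170) to 2143 TPM (29225D), with a median of 330 TPM, and extracranial tumors held 1.36 (43990A), 2.53 (43987A), 38.8 (43998A), 55.6 (R26P123) and 598 TPM (43825B). Every intra-CNS tumor but that of 29048 lay below all extra-CNS tumors. In the tumor of 29048, where both keratins were highest within the group, choroid plexus genes were high too (4603 TPM), and their part in the keratin levels was not tested. The log2 fold change was -7.79 (SE 2.03, edgeR adjusted p = 0.0078). Omission of 29048 gave -10.33 for Krt18 (adjusted p = 0.00393) and -9.56 for Krt8 (adjusted p = 0.00966), and omission of 29048 and R26P115, chosen after the data were seen, gave -10.35 for Krt18 (adjusted p = 0.00409). Among numbered mice alone (3 against 8 tumors), the log2 fold changes of Krt8 and Krt18 were -7.93 and -7.56 with edgeR adjusted p of 0.0519 and 0.0505, so that neither was called. In mean log2(TPM + 1), Krt8 differed by -4.34 among the numbered and -5.10 among the R26P mice, and Krt18 by -5.10 and -6.26.

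The intra-CNS tumors did not lack epithelial genes. Over 9 epithelial genes, the summed level was 49.6 to 686 TPM in intra-CNS and 9.66 to 194 TPM in extra-CNS tumors, and edgeR called 1 of the 9 higher and 3 lower in intra-CNS tumors. Epcam, a surface adhesion protein, was at 39.3 to 523 TPM in intra-CNS, 3.49 to 99.1 TPM in intracranial extra-CNS and 0.509 to 13.1 TPM in extracranial tumors. Cldn4, a tight junction claudin, was at or under the floor of 3 counts in all intra-CNS tumors. The 4 mesothelial genes summed to 0.0511 to 9.28 TPM in intra-CNS and 3.89 to 2721 TPM in extra-CNS tumors, nearly all of it mesothelin (Msln) in the latter, while Upk3b was at or under the floor in all tumors of both groups. The part of epithelial or mesothelial cells in the keratin levels was not tested.

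Krt19, a type I keratin of ducts and glands, remained low. Its highest level was 7.85 TPM (R26P170), it was at or under the floor of 3 counts in 5 of 16 tumors, and its groups overlapped. The log2 fold change was -1.09 (SE 1.35, edgeR adjusted p = 0.543) and 0.17 with DESeq2 (adjusted p = 0.911), so that the direction differed between tools. The edgeR value was 0.077 without the tumor of R26P170.

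Vim itself was called lower in intra-CNS tumors, with a log2 fold change of -2.53 (SE 0.70, edgeR adjusted p = 0.0109), that is 5.78-fold. Over the omissions of 1 tumor the value ran from -2.73 to -2.30. With limma it was -1.49 (adjusted p = 0.17). The mean log2(TPM + 1) differed by -1.85 among the numbered and by -0.84 among the R26P mice. All 5 fibroblast genes, which include those of collagen I and the matrix protein decorin, were called lower too, and their part in the level of Vim was not tested.

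Desmin, the filament of muscle, was at 1.16 to 1.84 TPM in the intra-CNS tumors, a narrow range. The intracranial extra-CNS tumors held 0.485 (43992A) to 7.6 TPM (43989C) with a median of 2.38 TPM. The extracranial tumors held 0.362 (43998A), 1.64 (43990A), 15.2 (43987A), 24.2 (43825B) and 70.2 TPM (R26P123). High Des was thus found in 3 extracranial tumors, of the jaw in 2 cases and of the back in 1. The log2 fold change of -3.50 (SE 1.17, edgeR adjusted p = 0.0302) was no longer called when any 1 intra-CNS tumor was left out (-3.58 to -3.42, adjusted p = 0.0582 to 0.0652). Without the extracranial tumor of R26P123 it was -2.57 and still called (adjusted p = 0.0432). Against the 6 intracranial extra-CNS tumors alone it was -1.68 (adjusted p = 0.0613) and against the 5 extracranial tumors -4.38 (adjusted p = 0.0147). With limma it was -1.23 (adjusted p = 0.239).

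The 10 skeletal muscle genes summed to 4.34 to 10.4 TPM in intra-CNS, 4.36 to 105 TPM in intracranial extra-CNS and 19.3 to 806 TPM in extracranial tumors, and the highest sums were those of R26P123 (806), 43825B (181) and 43987A (144), the same 3 tumors that held the most Des. Of these 10 genes 6 were called lower in intra-CNS tumors, and Ckm, the muscle creatine kinase, was at or under the floor in all of these. The part of muscle tissue in the Des values was not tested.

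Alpha-internexin, which joins neurofilaments in neurons of the brain, was the member called higher. Ina was at 3.23 (R26P98), 4.11 (R26P87), 12.5 (29050A), 46 (38594A) and 236 TPM (29048) in intra-CNS tumors. In extra-CNS tumors it was 0 to 1.58 TPM, with medians of 0.601 TPM in the intracranial and 0.129 TPM in the extracranial ones, and 3 of the 11 were at or under the floor. The groups did not overlap, as was the case for 5.43% of all genes tested in this direction. The log2 fold change was 6.19 (SE 1.07, edgeR adjusted p = 0.000414), and without the tumors of 29048 and R26P115 it was 4.19 (SE 0.87, adjusted p = 0.00214). Among the numbered and the R26P mice the log2(TPM + 1) difference was 5.13 and 1.72. Over the tumors induced at E6 the log2 fold change was 5.51 (SE 2.31, adjusted p = 0.139). The 10 neuron genes summed to 252 to 4460 TPM in intra-CNS and 20.8 to 486 TPM in extra-CNS tumors, with 6 of 10 called higher in the former, and their part in the Ina levels was not tested.

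Nefl and Nefm, the light and medium neurofilament chains, were not called. In intra-CNS tumors Nefl was at 0.492 (R26P98), 11 (29050A), 17.5 (R26P87), 34.9 (38594A) and 294 TPM (29048). The intracranial extra-CNS tumors held 5.98 (43992A) to 1127 TPM (29941C) with a median of 94.7 TPM, and the extracranial tumors 0.173 (43990A), 1.61 (43825B), 19.3 (43987A), 264 (43998A) and 395 TPM (R26P123). The highest levels of Nefl therefore stood in extra-CNS tumors whose Ina was at most 1.58 TPM. The log2 fold changes were -2.17 (SE 1.57, edgeR adjusted p = 0.296) for Nefl and -0.55 (SE 1.46, adjusted p = 0.787) for Nefm. Without the tumors of 29048 and R26P115 they were -4.46 (adjusted p = 0.0793) and -3.34 (adjusted p = 0.146), and without that of 29941C they were -1.46 and 0.098. The log2(TPM + 1) difference of Nefl was 0.65 among the numbered and -4.97 among the R26P mice, and that of Nefm 1.31 and -3.53.

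Gfap and Nes, the filament genes of astrocytes and of neural progenitors, were not called with edgeR. Gfap was at 5.57 (R26P87), 78.9 (29050A), 88.4 (R26P98), 96.8 (38594A) and 584 TPM (29048) in the intra-CNS tumors, with a log2 fold change of 2.33 (SE 1.51, adjusted p = 0.24). Without the tumor of 29048 the value was 0.998 (edgeR adjusted p = 0.658), and without that of 29225D it was 3.44 (adjusted p = 0.0888). With limma, which works on log2(TPM + 1), Gfap differed by 3.92 (SE 1.34, adjusted p = 0.028). Nes was at 35 (29048), 45.9 (R26P98), 79.2 (R26P87), 81.1 (29050A) and 100.0 TPM (38594A) in intra-CNS tumors and at 3.21 to 259 TPM in extra-CNS tumors. Its log2 fold change was -0.67 (SE 0.84, edgeR adjusted p = 0.55) and its direction turned with limma (0.82, adjusted p = 0.486). The edgeR value was -0.22 without the tumor of 43992A. The group sums of neural progenitor genes given above did not overlap, whereas the levels of Nes did.

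**Figure D3:**
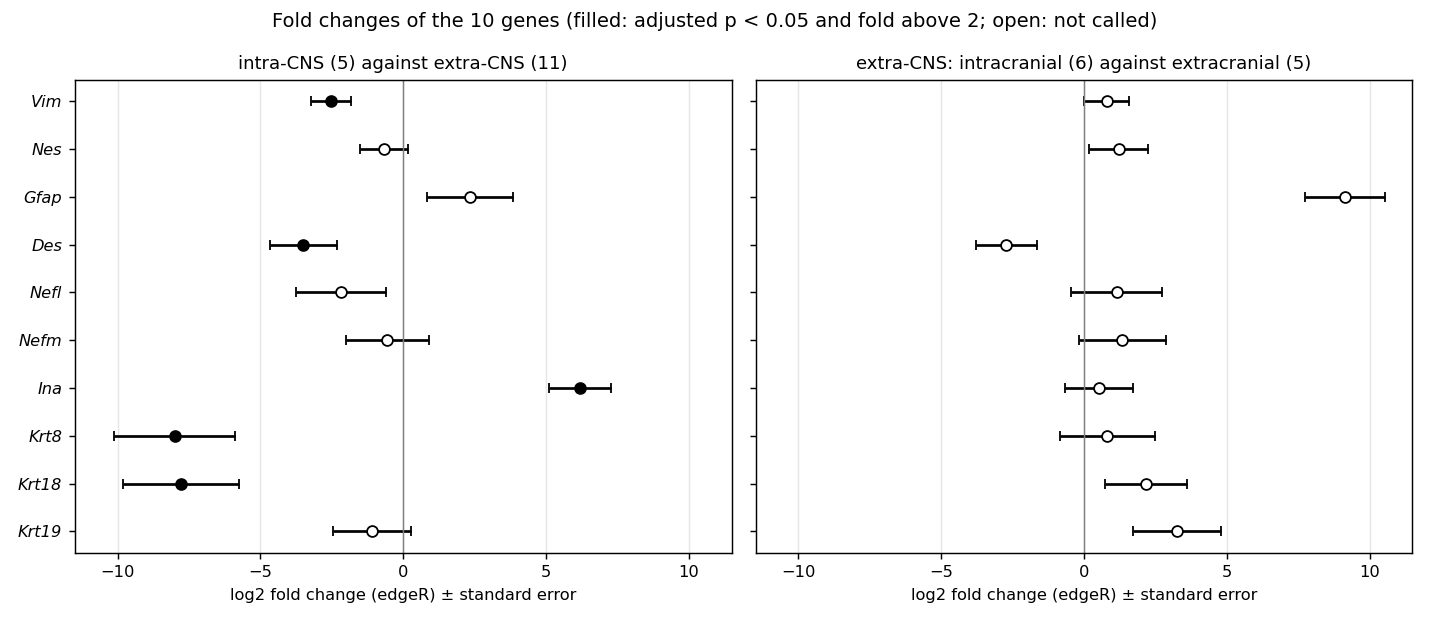
Points give the edgeR log2 fold change of each gene, with bars of ± 1 standard error, for 5 intra-CNS against 11 extra-CNS tumors (left, positive where higher in intra-CNS) and for 6 intracranial against 5 extracranial extra-CNS tumors (right, positive where higher in intracranial). Filled points were called: 5 on the left and 0 on the right, where Gfap has the largest value at 9.15. The standard errors were derived from the F statistic of the test.

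Among the extra-CNS tumors, the 6 intracranial were compared with the 5 extracranial to ask whether the filament genes differ with site within the Myc subgroup. The edgeR test called 0 of the 10 genes, and 0.00470% of 21261 genes tested (1 gene). At an unadjusted p under 0.05 it gave 2 of the 10, Gfap and Des, and 2606 of all genes. DESeq2 called 1 of the 10 (Gfap) and 2.30% of all genes (490), and limma called 0 of the 10 and 0.00471% of all genes. The DESeq2 share takes as not called 4295 genes without an adjusted p.

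Gfap was the gene whose values separated the sites. The extracranial tumors held 0.0515 (43825B), 0.055 (43987A), 0.0698 (R26P123), 0.0896 (43990A) and 0.109 TPM (43998A), which rest on 2 to 6 counts per tumor. The intracranial tumors held 0.674 (43992A), 3.87 (43989C), 19.1 (R26P170), 29.3 (29941C), 49 (R26P115) and 164 TPM (29225D), from 24 to 18251 counts. The groups did not overlap, as was the case for 0.541% of all genes tested in this direction. By edgeR's quasi-likelihood test the log2 fold change was 9.15 (SE 1.39, adjusted p = 0.227). With DESeq2 it was 9.20 (SE 0.99, adjusted p = 1.51e-16). When the tumor of 43992A was left out, edgeR called Gfap too (9.41, adjusted p = 0.0497), and over all omissions of 1 tumor the adjusted p ranged from 0.0497 to 0.489. With 43990A counted as intracranial, as in the mouse table of the study, the groups overlapped and the value was 8.98 (adjusted p = 0.226), and among the tumors induced at E8 it was 8.11 (adjusted p = 0.596). The mean log2(TPM + 1) differed by 3.72 among the numbered and by 4.89 among the R26P mice. Against the 5 extracranial tumors alone, the intra-CNS tumors also had higher Gfap, with a log2 fold change of 10.61 (SE 1.30, edgeR adjusted p = 0.000473).

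Among the astrocyte genes other than Gfap, the water channel gene Aqp4 was at or under the floor in all 5 extracranial tumors, and it was at 0.019 (43992A), 0.242 (43989C), 2.52 (R26P170), 5.97 (29941C), 7 (R26P115) and 27.3 TPM (29225D) in the intracranial ones. The value of 43992A was also under the floor, and the 6 tumors stood in the same order by Aqp4 as by Gfap. Over the whole list of 8 astrocyte genes the sums overlapped, at 15.3 to 464 TPM in intracranial and 47.7 to 473 TPM in extracranial tumors, and the gap junction gene Gja1 alone was at 27.7 to 445 TPM in the latter. Of the 8, edgeR called 0 in this comparison, as it did for each list of cell type genes. The part of astrocytes in the Gfap levels was not tested.

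None of the other members was called between the sites by edgeR. Krt18 had a log2 fold change of 2.17 (SE 1.43, edgeR adjusted p = 0.536), with 4 of 5 extracranial tumors below every intracranial tumor, the exception being 43825B. Krt8 had one of 0.82 (SE 1.66, adjusted p = 0.867), and the tumor of 43825B lay among the highest intracranial tumors. Without this tumor the values were 4.72 for Krt18 and 5.47 for Krt8 (edgeR adjusted p = 0.44 for both), and over all omissions of 1 tumor they ran from 1.41 to 4.72 and from 0.22 to 5.47. Des had one of -2.72 (SE 1.06, adjusted p = 0.373) and Krt19 one of 3.25 (SE 1.53, adjusted p = 0.415). Without the tumor of R26P123 the value of Des was -1.67, and without that of R26P170 the value of Krt19 was 2.003. For Vim, Nes, Nefl, Nefm and Ina the log2 fold changes lay between 0.51 and 1.34, with adjusted p of 0.652 to 0.889, and over omissions of 1 tumor between 0.035 and 2.26. A missed threshold does not show that the sites are alike. Within the numbered mice (4 against 4) the log2(TPM + 1) differences had the signs of the fitted fold changes for all 10 genes, while among the R26P mice (2 against 1) those of Vim, Nes, Nefl and Nefm were the opposite.

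How the members moved with each other was examined over the 11 extra-CNS tumors only, so that the difference between intra-CNS and extra-CNS tumors does not enter. In all, 24 relations were computed on log2(TPM + 1), 10 between members and 14 with summed genes of other cell types, each with two-sided permutation tests. Krt8 and Krt18 moved together, with a Pearson r of 0.95 (permutation p = 2e-05, adjusted p = 0.00024) and a Spearman rho of 0.95 (adjusted p = 0.00036). Without 43825B and 29225D, the tumors farthest from the median of Krt8, r was 0.94, and among the 8 numbered mice it was 0.95. The ratio of Krt8 to Krt18 nevertheless ran from 0.174 (29941C) to 1.76 (43825B), with a median of 0.53, so that in 9 of 11 tumors the type I partner was the more abundant in TPM.

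Nefl and Nefm were the closest pair, with r = 0.99 (permutation p = 1e-05, the smallest that 100000 resamples can give, adjusted p = 0.00024) and rho = 0.99 (adjusted p = 0.00024). Without 43825B and 43990A, where Nefl was lowest, r was no lower. The annotated spans of both genes overlap, and the part of shared reads in this relation was not tested. The ratio of Nefl to Nefm in TPM was 0.764 to 6.21 in these tumors, with a median of 2.95. The relation with Ina did not pass for either chain (r = 0.11 for Nefl and 0.21 for Nefm, adjusted permutation p = 0.859 and 0.788), and Ina was at most 1.58 TPM here. Nor did that of Krt19 with Krt8 (r = 0.07, adjusted permutation p = 0.946) or Krt18 (r = 0.01, adjusted permutation p = 0.978).

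**Figure D4:**
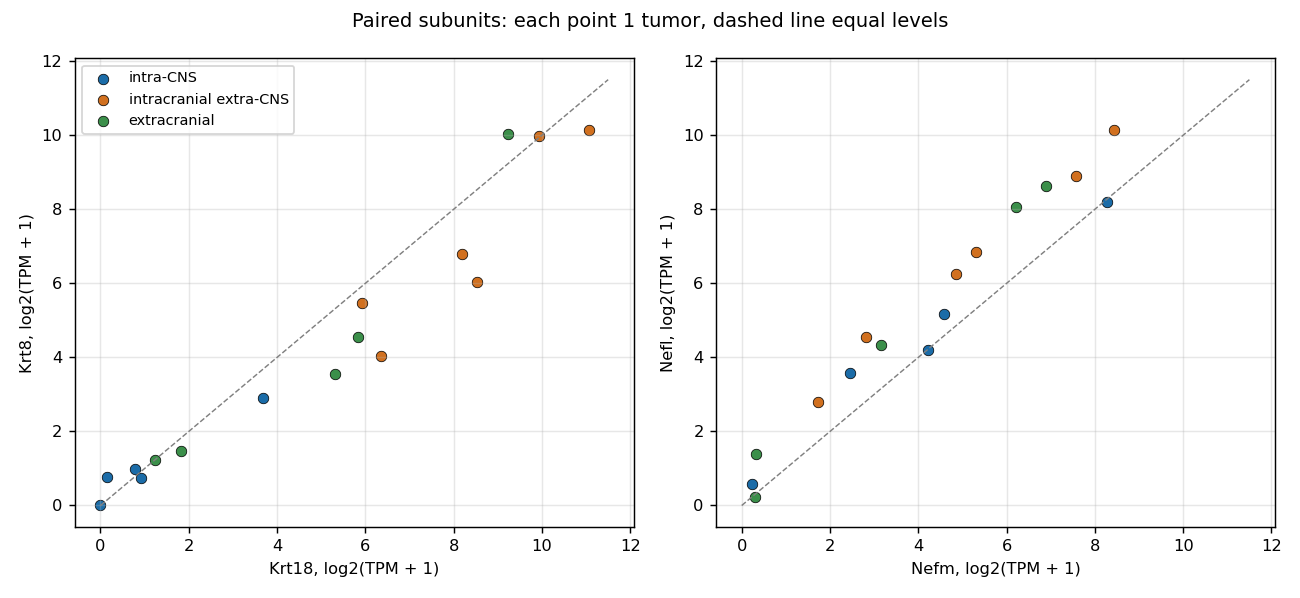
Each point is 1 of 16 tumors, on log2(TPM + 1) axes, with Krt8 against Krt18 (left) and Nefl against Nefm (right), and the dashed line marks equal levels. Over the 11 extra-CNS tumors the Pearson r was 0.95 and 0.99, and most of these tumors lie on the Krt18 side and on the Nefl side of the line.

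The relation of Vim was tested with 4 other members and passed with 0 of them. Its r was 0.31 with Nes, -0.02 with Des, 0.11 with Gfap and 0.23 with Krt8 (adjusted permutation p of 0.712 to 0.978), and 0.17 with the fibroblast genes (adjusted permutation p = 0.859). Without 43990A and R26P115, the tumors of lowest Vim, r was -0.23 with Nes, -0.61 with Des and 0.57 with Gfap. High vimentin and high keratin were found together in some extra-CNS tumors and apart in others. The tumor of 29225D held 8635 TPM of Vim with 2143 TPM of Krt18, and that of 43987A held 7548 TPM of Vim with 2.53 TPM of Krt18. The tumor of R26P115 held 604 TPM of Vim with 292 TPM of Krt18.

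Of the relations with genes of normal cell types, 3 passed an adjusted permutation p of 0.05 over the 24. Nes went with 5 endothelial genes (Pecam1, Cdh5, Kdr, Cldn5 and Tek), with r = 0.87 (adjusted permutation p = 0.0056), rho = 0.86 (adjusted permutation p = 0.00992) and r = 0.76 without 43992A and R26P170. In the tumor of 43992A, which held the most Nes (259 TPM), Cldn5 alone made 396 of the 425 TPM of this sum. The relation of Nes with each endothelial gene alone was not tested. Des went with the 10 skeletal muscle genes, with r = 0.76 (adjusted permutation p = 0.0296) but rho = 0.55 (adjusted permutation p = 0.361), and r was 0.58 to 0.84 with 1 tumor left out, lowest without that of R26P123. Krt19 went with the 9 epithelial genes, with r = 0.75 (adjusted permutation p = 0.0296), rho = 0.74 (adjusted permutation p = 0.072) and r = 0.87 in the 8 numbered mice. Its levels were near the floor here, with a median of 0.206 TPM and 4 of the 11 tumors at or under 3 counts. The calls for Des and Krt19 were lost in 7 and 4 of the 11 omissions of 1 tumor, and that for Nes in 0. Krt8 and Krt18 had r of 0.35 and 0.37 with the epithelial genes (adjusted permutation p = 0.612 for both) and 0.39 and 0.27 with the mesothelial genes (adjusted permutation p = 0.612 and 0.771). Without the tumors of 29941C and R26P115, which lay farthest from the median of the mesothelial sum, the latter were 0.88 and 0.95. The omitted tumors held 5.15 and 3.89 TPM of mesothelial genes with 368 and 292 TPM of Krt18.

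**Figure D5:**
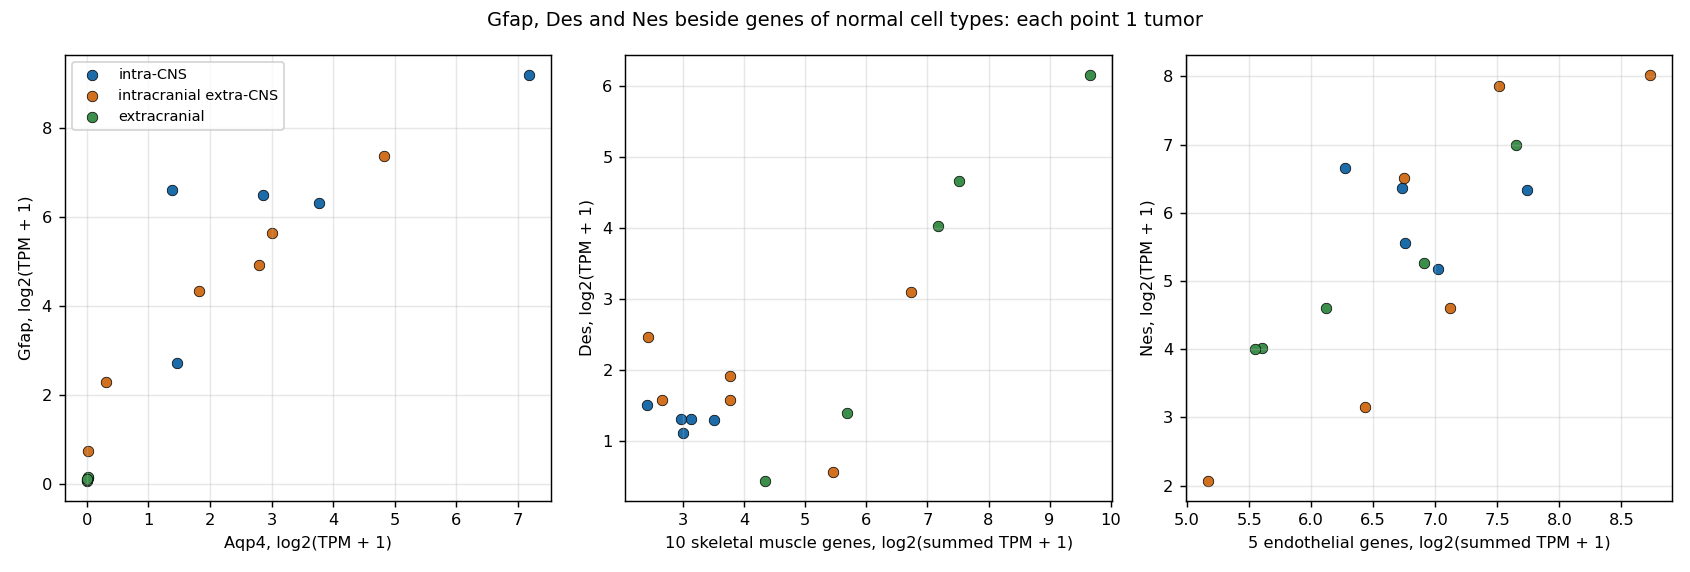
Each point is 1 of 16 tumors: Gfap against Aqp4 (left), Des against the sum of 10 skeletal muscle genes (middle) and Nes against the sum of 5 endothelial genes (right), all as log2(TPM + 1). Gfap and Aqp4 are both near 0 in the 5 extracranial tumors, Des is highest at 70.2 TPM in R26P123, where the muscle sum is 806 TPM, and Nes and the endothelial sum have r = 0.87 over the 11 extra-CNS tumors.

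For each member, the 3 other genes of most similar rank order over the 11 extra-CNS tumors were taken from 14262 genes whose count averaged 50 or more in these tumors, as a description with no test. For Gfap they were Aqp4 (Spearman rho 0.99), Slc25a18, a mitochondrial glutamate carrier (0.96), and Gm19935 (0.94). For Krt8 they were Vps37a (0.94), Necab2 (0.93) and Sel1l3 (0.91), and for Krt18 Vps37a (0.96), Krit1 (0.95) and Necab2 (0.94), so that Vps37a and Necab2 stood on both lists. For Nefl they were A230070E04Rik (0.93), H6pd (0.92) and Atp8b2 (0.91), and for Nefm A230070E04Rik (0.96), Atp8b2 (0.95) and Ikbip (0.94). For Des they were AI839979 (0.95), the muscle gene Cmya5 (0.92) and Kmo (0.91). For Vim they were Galns (0.95), Zc3h15 (0.94) and Rap1gap (0.93), and for Nes Vav3 (0.95), Etf1 (0.94) and Fam91a1 (0.94). For Ina they were Orc5 (0.97), Pcdhb22 (0.95) and Ifit3b (0.94), and for Krt19 Adat2 (0.96), Fasn (0.94) and Rnaseh2a (0.94). Ina and Krt19 were at or near the floor in many of these tumors, so that their rank order rests on few reads. The same holds for Gfap among the 5 extracranial tumors (2 to 6 counts each), and Aqp4 was at or under the floor in these and in that of 43992A.

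The other genes of the pathway were taken from 2 listed sets. Of 26 further intermediate filament genes, 1 was called higher (Nefh) and 6 lower in intra-CNS than in extra-CNS tumors, and 19 were not called. The 7 called are 26.9% of the list (3.85% higher and 23.1% lower), beside 5689 of 21854 over all genes (12.9% higher and 13.1% lower). Their median log2 fold change was -4.14, against -0.15 over all genes, and it rested on 1 tumor. Of the 16 keratin genes in the list, 13 were highest in the extracranial tumor of R26P123, among them Krt13 (608 TPM, at most 0.168 elsewhere), Krt14 (599 TPM, at most 6.41 elsewhere) and Krt4 (407 TPM, at most 0.0744 elsewhere), keratins of stratified epithelia that were not called. Without that tumor the median was -0.96, and 1 gene was called higher and 5 lower. Nefh, the heavy neurofilament chain, had a log2 fold change of 5.10 (SE 1.16, edgeR adjusted p = 0.00308), with 164 TPM in the tumor of 29048 and 0.25 to 7.49 TPM in the other intra-CNS tumors. Without 29048 it was 1.73 (adjusted p = 0.177), so this call rested on that tumor, which also held the most Ina.

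Among the genes called lower, Krt6a (-10.49, SE 3.89, edgeR adjusted p = 0.0476) was at 279 TPM in the extracranial tumor of R26P123 and at no more than 0.773 TPM elsewhere. Krt20 (-10.16, SE 3.80, edgeR adjusted p = 0.0498) was at 1127 TPM in the intracranial tumor of 29941C and at no more than 0.483 TPM elsewhere. Each of these calls was lost in 7 of 16 omissions of 1 tumor, and neither DESeq2 nor limma made it. Without R26P123 the value of Krt6a was -2.83 and without 29941C that of Krt20 was -1.14. Krt7, a type II keratin of simple epithelia (-7.52, SE 2.19, edgeR adjusted p = 0.0148), was at 0.105 to 121 TPM in extra-CNS and at most 0.305 TPM in intra-CNS tumors, and limma did not call it. Without the tumor of 43825B its value was -5.52. The other 3, named after their values were seen, were Krt80, Iffo2 and Lmna. Lmna, which encodes the nuclear lamins A and C, had a log2 fold change of -3.46 (SE 0.55, edgeR adjusted p = 0.000225), with 16 to 87.9 TPM in intra-CNS, 48.1 to 420 TPM in intracranial extra-CNS and 207 to 651 TPM in extracranial tumors. The B-type lamin genes Lmnb1 and Lmnb2 were not called.

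Of 21 genes of filament linkers and desmosomal partners, 0 were called higher and 6 lower (28.6%) in intra-CNS tumors, beside 12.9% and 13.1% of all genes. Their median log2 fold change was -1.76, and -0.95 without the tumor of R26P123. The largest falls by the naming rule were those of the desmosomal plakophilin Pkp3 (-4.95, SE 1.63, edgeR adjusted p = 0.0279), the small heat shock chaperone Cryab (-4.60, SE 1.56, adjusted p = 0.0326) and the nuclear envelope linker Syne3 (-4.14, SE 1.16, adjusted p = 0.0122). The calls of Pkp3 and Cryab were lost in 4 of 16 omissions of 1 tumor each, and that of Syne3 in 0, and limma called 0 of these 3. Without the tumor of R26P123, which held 24.9 TPM of Pkp3 against at most 2.48 TPM elsewhere, the value of Pkp3 was -3.17 and that of Syne3 -3.43. Without that of 29225D the value of Cryab was -3.31. The remaining 3, named after their values were seen, were Fam83h, Dst and Plec. The call of Dst was lost when any of the 5 intra-CNS tumors was omitted (highest adjusted p = 0.071 with edgeR) and limma did not call it, while those of Fam83h and Plec were lost in 0 omissions and were made by limma too. Plec, whose product plectin ties intermediate filaments to the other parts of the cytoskeleton, was at 6.85 to 31.1 TPM in intra-CNS tumors, 30.2 to 63.8 TPM in intracranial extra-CNS tumors and 37.6 to 145 TPM in extracranial tumors. Its log2 fold change was -2.76 (SE 0.44, edgeR adjusted p = 0.000239). The desmosomal genes Jup, Dsp, Dsg2 and Dsc2 were not called. Between the sites of extra-CNS tumors, edgeR called 0 of the 26 and 0 of the 21 genes, with median log2 fold changes of -2.20 and -0.30 against 0.02 over all genes. Without the tumor of R26P123 these medians were 0.82 and 0.33, so that both turned in sign.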

How the data were processed

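RNA of 16 tumors was sequenced as stranded mRNA libraries (100-base paired-end reads). The authors deposited whole-number counts per gene and TPM (transcript abundance scaled for gene length and depth, to the same total in each tumor). The submitters' processing notes name Trim Galore, FastQC, STAR 2.5.3a, Picard and mm10. The counting annotation is not given in the sources used here. The site of a tumor follows its label and the subgroup names come from the mouse table of the study, 0 columns were left unmapped, and no tumor was left out of the main tests.

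Levels are TPM, and correlations used log2(TPM + 1). The deposited counts were tested with edgeR 4.0.16 (TMM, quasi-likelihood, R 4.3.3) over all genes with Benjamini-Hochberg adjustment. The SE printed for edgeR was derived from the log2 fold change and the F statistic of its test, and that of DESeq2 is the one it reports. Calls needed an adjusted p below 0.05 with a log2 change of more than 1 in size. DESeq2 1.42.0, limma 3.58.1 on log2(TPM + 1), other filters and scalings, subsets and omission of each tumor were alternatives. Relations were tested with 100000 permutations (scipy 1.17.1). A level of 3 counts or fewer was taken as the floor. The edgeR step was tested on simulated data with 200 genes changed 4-fold, drawn from those with a mean count of at least 50. It recovered 55% of them for 5 against 11 tumors and 32.5% for 6 against 5. Recovery of genes with lower counts was not tested.

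The members and lists were chosen with earlier results of these data known. From each further list, up to 3 called genes per direction with the largest fold change and a mean count of at least 50 were named. Total counts of 17889968 to 110177889 set the precision, and the interval of a low count covers counting error only.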

Additional observations from a re-analysis of the deposited data

Results flagged for a closer look

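In groups of 4 to 10 tumors, the highest or lowest level on the log2(TPM + 1) scale was set apart where its gap to the nearest tumor exceeded Dixon's 95% critical share of the range. Of 30 groups tested, 3 had such a tumor, and chance gives about 1 in 20.

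Vim stood apart in the intracranial extra-CNS tumor of R26P115, at 9.24 on the log2(TPM + 1) scale with the nearest tumor at 12.76. This tumor also held 201893 TPM of choroid plexus genes, whose part in the value was not tested. Vim likewise stood apart in the extracranial tumor of 43990A, at 8.53 with the nearest tumor at 11.77. Krt18 stood apart in the intra-CNS tumor of 29048, at 3.67 with the nearest tumor at 0.92, and the same tumor held 4603 TPM of choroid plexus genes and 6772 TPM of oligodendrocyte genes, whose part in the value was not tested.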

How the results depend on the processing

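Ina, Krt8, Krt18 and Vim kept their call between intra-CNS and extra-CNS tumors in all 16 omissions of 1 tumor, and Des lost it when any intra-CNS tumor was omitted. The tumors induced at E6 gave 3533 called genes, 37.2% of them higher in intra-CNS tumors against 49.7% over all tumors and 75.5% with limma. The numbered mice gave 2 called members. Between the sites of extra-CNS tumors, DESeq2 gave 490 genes and 1 member, the tumors induced at E8 gave 0 genes, and omission of 1 tumor gave 0 to 3 genes and 0 to 1 members. Values that changed sign, none of them called, were those of Nes (0.83 with limma, 0.19 with the naming scheme of the mice as covariate, 1.15 at E6, 0.13 against extracranial tumors), Nefm (0.32 against extracranial tumors, 0.24 in numbered mice, -3.21 to 0.10 over omissions), Krt19 (0.17 with DESeq2, 1.43 against extracranial tumors, 0.31 in numbered mice, -2.25 to 0.077 over omissions), Ina between sites (-0.39 at E8) and the r of Krt18 with Krt19 (-0.023 at a pseudocount of 0.1). Over omissions of 1 tumor, r ran from -0.14 to 0.13 for Krt18 with Krt19, -0.12 to 0.20 for Krt8 with Krt19, -0.15 to 0.35 for Krt8 with Vim, -0.07 to 0.46 for Nefl with Ina, -0.24 to 0.044 for Vim with Des, -0.11 to 0.45 for Vim with Gfap, -0.019 to 0.37 for astrocyte genes with Gfap, -0.35 to 0.40 for fibroblast genes with Vim, -0.011 to 0.23 for mesothelial genes with Krt19 and -0.11 to 0.35 for neuron genes with Ina. The cause of these shifts was not tested. No paired analysis was possible because the tumors came from different mice and replicate numbers only name them. Depth limits Gfap in extracranial tumors (2 to 6 counts) and Krt19 and Ina in extra-CNS tumors.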

Other observations

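Macrophage genes (Ptprc, Cd68, Csf1r, Aif1 and C1qa) summed to 332 to 526.3 TPM in intra-CNS, 359 to 2461 TPM in intracranial extra-CNS and 1669 to 3799 TPM in extracranial tumors, and edgeR called 5 of 5 lower in intra-CNS than in extra-CNS tumors. Genes of secretory glands summed to at most 839 TPM in extra-CNS and 101 TPM in intra-CNS tumors, with 2 of 5 called higher and 1 lower in intra-CNS tumors. The highest extra-CNS sum was nearly all Aqp5 (up to 838 TPM) and the highest intra-CNS sum nearly all Amy1 (up to 101 TPM). Bpifa2, Smr3a and Muc19 were at no more than 3.16 TPM in any tumor. The smooth muscle and pericyte genes summed to 85.5 to 189 TPM in intra-CNS and 69.4 to 719 TPM in extra-CNS tumors, and 1 of 7 was called lower in the former.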
